A study of Mus musculus with 4 samples.

Results

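The genes described are 8 enzymes that carry activated carbon units on folate or use them: Tyms, Shmt1, Mthfd1, Mtr and Gart, which act in the cytosol or nucleus, and Shmt2, Mthfd2 and Mthfd1l, which act in mitochondria. They were taken by symbol from the deposited tables, where each symbol named 1 row, so no choice between rows was needed. All 8 were among the 13904 genes tested, of 37310 in the tables. RNA came from bone marrow natural killer (NK) cells of C57BL/6 mice aged 6 to 8 weeks, sorted as CD3e-NK1.1+CD49b+ and sequenced as Smart-seq2 libraries. The groups are 2 libraries from littermate controls (Ctrl) and 2 from mice of the genotype Gabpb1l-/-Gabpb2-/- (dKO). The double mutant lacks the tetramer of the transcription factor GABP, in which the DNA-binding subunit Gabpa pairs with a Gabpb subunit. Whether the controls carry any mutant allele, whether a library pools animals and in which cells the alleles were deleted is not given in the sources used here. No measured value entered the rule, but the genes were chosen on knowledge of the pathway with earlier results of these data known, among them the lower Tyms level in dKO, so that difference is a description here.

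Folate enzymes move single carbon units from serine and glycine into nucleotides and methionine. In mitochondria, Shmt2 takes a carbon from serine, Mthfd2 oxidises it and Mthfd1l releases it as formate. In the cytosol, the trifunctional enzyme Mthfd1 loads formate back onto folate and Shmt1 exchanges carbon with serine. Gart uses folate-bound carbon for purine synthesis, Mtr for the making of methionine, and Tyms, thymidylate synthase, for the only step that makes thymidylate from deoxyuridylate. Dividing lymphocytes are known to raise these enzymes when they copy their DNA. The promoter of mouse Tyms lacks a TATA box, and GABP is known to activate it together with Sp1 in reporter assays.

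The promoter letters below are shown because the genotype removes a form of GABP, whose known binding motif has the core CCGGAAG. They come from RefSeq (GRCm38.p6) for the 3 members with the largest drop in dKO and for Shmt2, the mitochondrial partner of Shmt1, and each run is written 5′ to 3′ on the strand of its gene. Capitals mark the core CCGGAAG on either strand. They likewise mark the Sp1-type motif GGGCGG and the box CCAAT. In Shmt2 they further mark the NRF1-type motif GCGCATGC, which overlaps its own reverse complement there. Tyms, from 120 to 1 bases before the start, is on the minus strand at chr5:30073626-30073745. Shmt1, over the same span, is on the minus strand at chr11:60811266-60811385. Mthfd2, from 120 to 3 bases before the start, is on the minus strand at chr6:83317607-83317724. Shmt2, from 200 to 1 bases before the start, is on the minus strand at chr10:127522445-127522644. Starts are those of RefSeq. The GENCODE M21 gene spans given further on join all transcripts of a gene, and for Mthfd2 and Shmt1 another transcript begins further upstream, so that their shown bases lie inside the span, where no exon is annotated.
Tyms: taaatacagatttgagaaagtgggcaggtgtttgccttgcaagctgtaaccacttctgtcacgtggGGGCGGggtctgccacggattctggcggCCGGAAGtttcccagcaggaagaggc
Shmt1: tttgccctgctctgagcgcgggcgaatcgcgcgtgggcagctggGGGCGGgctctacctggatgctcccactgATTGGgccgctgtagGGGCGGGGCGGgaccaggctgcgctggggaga
Mthfd2: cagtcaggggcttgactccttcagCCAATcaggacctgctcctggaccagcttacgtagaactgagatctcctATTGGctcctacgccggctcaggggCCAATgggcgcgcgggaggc
Shmt2: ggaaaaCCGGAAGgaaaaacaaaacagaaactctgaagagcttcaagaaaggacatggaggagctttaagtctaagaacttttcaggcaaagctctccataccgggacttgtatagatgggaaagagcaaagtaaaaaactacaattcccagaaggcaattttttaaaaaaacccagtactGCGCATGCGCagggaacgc

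All 8 members matched a window that runs from 250 bases before to 50 bases after the start. CCGGAAG stood in 3 of the 8 windows (Tyms, Shmt2 and Gart) and in 8.86% of all 32851 promoter windows. The longer CCGGAAGT, which contains it, stood in Tyms and Gart and in 3.89% of all windows. In Tyms the motif lay 26 to 20 bases before the start, with GGGCGG 54 to 49 bases before it. In Shmt2 it lay 194 to 188 bases before the start, and in Gart its reverse complement lay 34 to 40 bases after it. Shmt2 alone among the members held GCGCATGC, found in 2.71% of all windows. The windows of 6 members held GGGCGG (35.7% of all windows) and those of 5 held CCAAT (37.4%), with 3 copies in Mthfd2. The E2F-type motifs TTTCCCGC and TTTGGCGC and the ATF4-type motif TGATGNAA were in none of the 8 windows. These matches describe letters only. Of the 2 members with the longer motif, Tyms had a log2 fold change of -2.35 (edgeR adjusted p = 0.0379). Gart, the other, was at -0.56 (edgeR adjusted p = 0.356). A link between motif and change was not tested.

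Gene counts per library summed to between 30233870 and 34724516. Gabpb2, the deleted gene that a count over the gene can check, had 1244 and 1009 counts in Ctrl and 85 and 86 in dKO. Xist had 6066 and 6430 counts in Ctrl and 2 and 9 in dKO, while the Y-linked gene Ddx3y had 0 counts in both Ctrl libraries and 8933 and 6757 in dKO. The labels give no sex, and for every member the effect of genotype and that of sex cannot be told apart.

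Tyms was the member with the lowest relative level in dKO cells. It stood at 28.2 and 22.0 counts-per-million (CPM) in Ctrl 1 and Ctrl 2 and at 3.33 and 6.55 CPM in dKO 1 and dKO 2. The lower of the Ctrl values was more than the higher of the dKO values, so the groups did not overlap. The means of 25.1 ± 4.40 and 4.94 ± 2.28 CPM (SD, n = 2) differed 5.09-fold, a log2 fold change of -2.35 (SE 0.36, 95% interval -3.18 to -1.51, edgeR adjusted p = 0.0379). Of the 13904 tested genes, 114 had a lower log2 fold change. Tyms was the 1 member of 8 past the adjusted threshold of 0.05, where 0.611% of all tested genes passed in either direction and 0.295% passed as lower in dKO. Nothing is read from that count, because the fall of Tyms was known when the genes were chosen.

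The depth behind Tyms was modest in dKO, at 107 and 198 counts against 962 and 731 in Ctrl. The whole-number count was 2.97 times the RSEM estimate in dKO 1 and 2.06 to 2.28 times in the other libraries, against a median of 2.05 to 2.07 over 9375 genes. Each fragment may thus have been counted more than 1 time, which makes counting error larger than these counts alone would give. With the RSEM estimates the log2 fold change was -2.36, but the adjusted p rose to 0.0527. Without Ctrl 1 it was -2.16 with an adjusted p of 0.0534 (edgeR). The Tyms gene (ENSMUSG00000025747.6) lies on chromosome 5 from 30058202 to 30073617 (GRCm38, GENCODE M21), where no other annotated gene overlaps it.

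**Figure D1:**
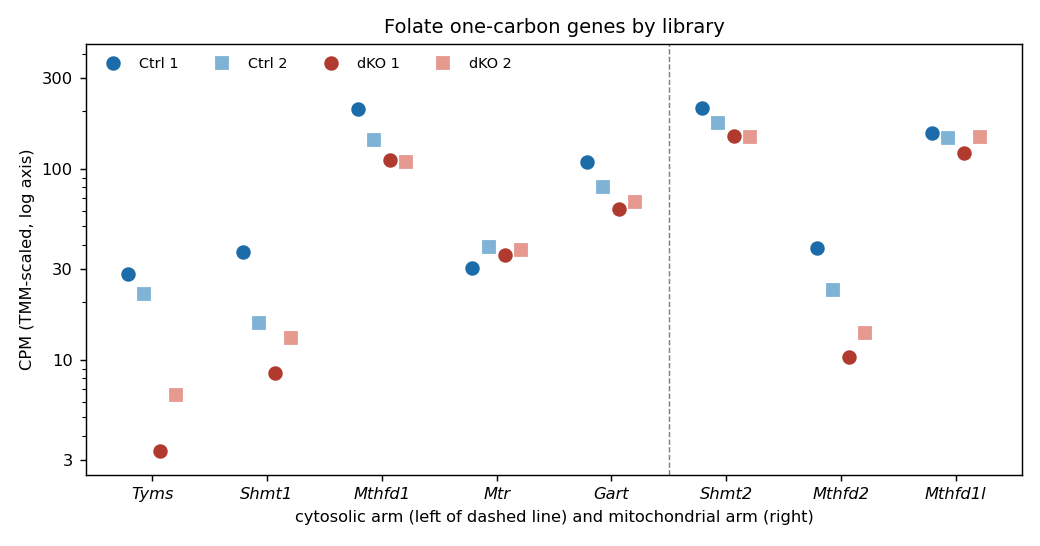
Level of each member in each library, in CPM on a log axis, with 1 point per library (circles replicate 1, squares replicate 2, blue Ctrl, red dKO). Tyms stood at 28.2 and 22.0 CPM in Ctrl against 3.33 and 6.55 CPM in dKO, whereas the points of Mtr and Mthfd1l overlap between the groups.

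The serine hydroxymethyltransferases of both arms were lower in each dKO library, and whether they differ in their change was not tested. Cytosolic Shmt1 stood at 36.9 and 15.7 CPM in Ctrl against 8.56 and 12.9 CPM in dKO. The groups did not overlap, but Ctrl 2 was nearer to dKO 2 than to Ctrl 1. Its log2 fold change of -1.29 (SE 0.41, 95% interval -2.24 to -0.34) did not pass (edgeR adjusted p = 0.301). Mitochondrial Shmt2, the most abundant member per length, stood at 207 and 173 CPM in Ctrl against 149 and 146 CPM in dKO. These groups did not overlap either, and the interval of its log2 fold change of -0.36 (SE 0.16) ran from -0.73 to 0.01 (edgeR adjusted p = 0.482). Shmt1 lies on chromosome 11 from 60788104 to 60811718 and shares 184 bases with Smcr8 on the other strand. Smcr8 had 733 and 715 counts in Ctrl and 634 and 535 in dKO. Shmt2 lies on chromosome 10 from 127517123 to 127522444 and shares 32 bases with Ndufa4l2, which had 0 counts in every library.

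Mthfd2, the mitochondrial enzyme that is low in most resting adult tissues and high in dividing cells, stood at 38.4 and 23.2 CPM in Ctrl against 10.4 and 13.9 CPM in dKO. It had the second lowest log2 fold change of the members, at -1.34 (SE 0.30, 95% interval -2.04 to -0.64), and did not pass (edgeR adjusted p = 0.137). Every Ctrl library lay above every dKO library, and Ctrl 1 was 1.65 times Ctrl 2. Mthfd1l, the next mitochondrial step, stood at 154.5 and 145.2 CPM in Ctrl against 121.3 and 146.9 CPM in dKO. The groups overlapped and the log2 fold change of -0.16 (SE 0.17, 95% interval -0.54 to 0.22) did not pass (edgeR adjusted p = 0.817).

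Mthfd1, the cytosolic enzyme that meets the formate, stood at 206.0 and 141.3 CPM in Ctrl against 110.6 and 108.7 CPM in dKO. The groups did not overlap, and the spread lay in Ctrl, where the SD was 45.8 CPM against 1.33 CPM in dKO. Its log2 fold change was -0.66 (SE 0.20, 95% interval -1.13 to -0.20, edgeR adjusted p = 0.274). Mthfd2 lies on chromosome 6 from 83305691 to 83325908, Mthfd1l on chromosome 10 from 3973118 to 4167081 and Mthfd1 on chromosome 12 from 76255298 to 76319803. Of the genes that overlap these 3, only pseudogene Gm16074 and the small nuclear RNA gene Gm25515 within Mthfd1l were in the count tables, at 20 counts or fewer. Among those absent were Gm34868, antisense to Mthfd1 over 19090 bases, and Gm43890, on the strand of Mthfd2 over 2799 bases. Reads from them may have been counted for the members.

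Beside Tyms, Gart and Mtr use folate-bound carbon. Gart, a trifunctional enzyme of purine synthesis, stood at 108.8 and 80.7 CPM in Ctrl against 61.3 and 67.1 CPM in dKO. The groups did not overlap, with a log2 fold change of -0.56 (SE 0.20, 95% interval -1.01 to -0.11, edgeR adjusted p = 0.356). Whole-number counts of Gart were only 1.49 to 1.52 times the RSEM estimates, below the ratio of most genes in all 4 libraries, and Gart (chromosome 16 from 91621186 to 91646952) shares 2676 bases with the antisense gene Gm15964. Mtr, methionine synthase, stood at 30.3 and 38.8 CPM in Ctrl against 35.5 and 37.5 CPM in dKO. Both dKO values of Mtr lay between the Ctrl values, and the log2 fold change of 0.08 (SE 0.21, 95% interval -0.40 to 0.56) did not pass (edgeR adjusted p = 0.947). Mtr lies on chromosome 13 from 12182712 to 12258113.

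**Figure D2:**
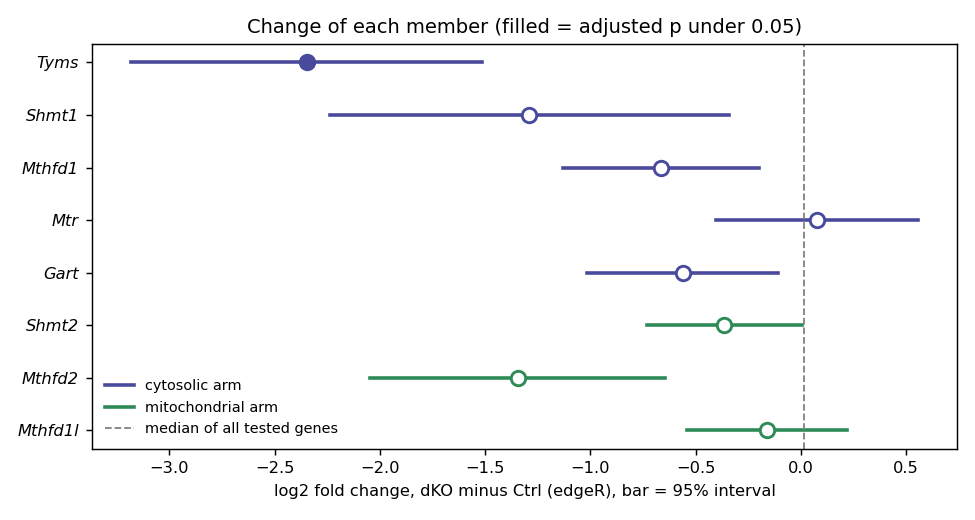
Log2 fold change of each member (dKO minus Ctrl, edgeR) with its 95% interval, blue for the cytosolic and green for the mitochondrial arm, filled where the adjusted p was under 0.05. Only Tyms is filled, at -2.35, and the bars of Mtr, Shmt2 and Mthfd1l reach past 0.

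Of the 8 members, 7 had a negative log2 fold change (48.4% of all tested genes did) and 6 had groups that did not overlap, lower in dKO (19.9% of all tested genes). The unadjusted p was under 0.05 for 5 members, all lower in dKO (5.34% of all tested genes in that direction). The median log2 fold change was -0.66 over the 5 cytosolic members and -0.36 over the 3 mitochondrial members, against 0.01 over all tested genes. Within each arm the values ran from one near 0 to one far below it, from 0.08 (Mtr) to -2.35 (Tyms) in the cytosol and from -0.16 (Mthfd1l) to -1.34 (Mthfd2) in mitochondria. The arms thus overlapped in their changes, and the difference between them was not tested. DESeq2 called 3 members lower (Tyms, Mthfd2 and Shmt1), where 1.43% of its tested genes were called lower. Without the filter on low counts edgeR called those 3 and Mthfd1 lower, where 1.3% of genes were called lower. Tyms, whose fall was known when the genes were chosen, is in each of these counts, so they are a description only.

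Levels between genes were compared as transcripts-per-million (TPM), which the authors scaled by length. Summed over the 5 cytosolic members, TPM was 286 and 191 in Ctrl and 140 and 136 in dKO. Over the 3 mitochondrial members it was 249 and 221 in Ctrl and 187 and 177 in dKO. Both sums were lower in both dKO libraries than in either Ctrl library. The mitochondrial share of the summed TPM was 46.6% and 53.6% in Ctrl and 57.2% and 56.6% in dKO. The share did not overlap between groups, but the step from Ctrl 1 to Ctrl 2 was wider than the step from Ctrl 2 to either dKO library. With 2 libraries against 2, an exact two-sided permutation test cannot give a p below 0.333.

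Partner enzymes were also set against each other within a library. Shmt2 TPM was 2.86 and 7.63 times Shmt1 TPM in Ctrl and 8.56 and 6.74 times in dKO, so the groups overlapped. Mthfd1l TPM was 0.637 and 0.885 times Mthfd1 TPM in Ctrl and 0.903 and 1.12 times in dKO, and these groups did not overlap. Within mitochondria, Mthfd2 TPM was 0.446 and 0.282 times Mthfd1l TPM in Ctrl and 0.165 and 0.177 times in dKO. That ratio separated the groups by more than the dKO libraries differed from each other, though by less than the Ctrl libraries did. In TPM, Shmt2 was the highest member in every library (106 to 152), and the lowest was Mtr in both Ctrl libraries (9.75 and 13.6) and Tyms in both dKO libraries (2.97 and 8.60). Mtr at 9.75 TPM and Tyms at 40.1 TPM in Ctrl 1 thus changed order in dKO.

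**Figure D3:**
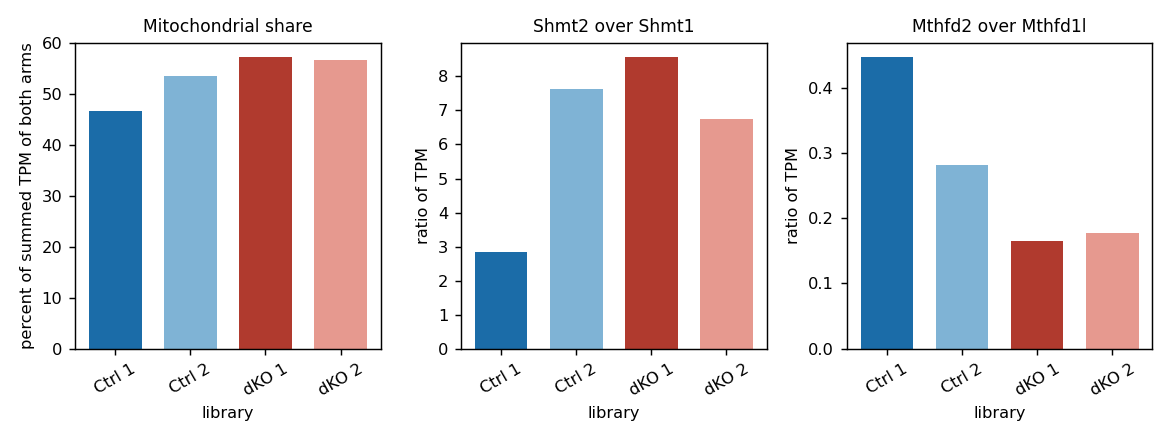
Mitochondrial share of the summed TPM of both arms in percent (left) and TPM ratios of Shmt2 over Shmt1 (middle) and Mthfd2 over Mthfd1l (right), 1 bar per library. Shmt2 over Shmt1 overlaps between the groups (2.86 and 7.63 in Ctrl, 8.56 and 6.74 in dKO), and Mthfd2 over Mthfd1l does not.

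RSEM also gives each gene a length weighted by the mix of its transcripts. That length was the same in all libraries for Mtr, Shmt2 and Mthfd2, and moved by under 100 bases for Mthfd1, Mthfd1l and Gart. For Tyms it was 1229 and 1551 bases in Ctrl and 1526 and 1354 bases in dKO, and for Shmt1 1311 and 1641 bases in Ctrl and 1221 and 1414 bases in dKO. Neither gene showed lengths that separated the groups.

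The Ctrl libraries stood apart from each other in these genes. Ctrl 1 was above Ctrl 2 for 7 of the 8 members, from 1.06 times for Mthfd1l to 2.35 times for Shmt1, and below it for Mtr (0.782 times). Among the other lists, Ctrl 1 was above Ctrl 2 for 26 of 28 S-phase genes and 14 of 15 mitosis genes, but for 6838 of 13904 genes in all. Genes with any count numbered 15921 in Ctrl 1 and 18206 in Ctrl 2, against 19450 in dKO 1 and 19220 in dKO 2. The part of such library differences in the members' values was not tested. Leaving out Ctrl 1 moved the median log2 fold change of the cytosolic arm from -0.66 to -0.37, and leaving out Ctrl 2 moved it to -0.91. Without Ctrl 1, Shmt1 was at -0.55 (edgeR adjusted p = 0.708), Mthfd2 at -0.94 (not called), and Mtr turned to -0.093 (0.955). Without Ctrl 2, Shmt1 at -1.78 and Mthfd2 at -1.66 passed the threshold (edgeR adjusted p = 0.0343 and 0.0311), where 0.628% of genes were called lower. Without dKO 2, Tyms was at -2.92 (edgeR adjusted p = 0.00848) and Mthfd1l at -0.31, and without dKO 1 they were at -1.94 and -0.03.

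**Figure D4:**
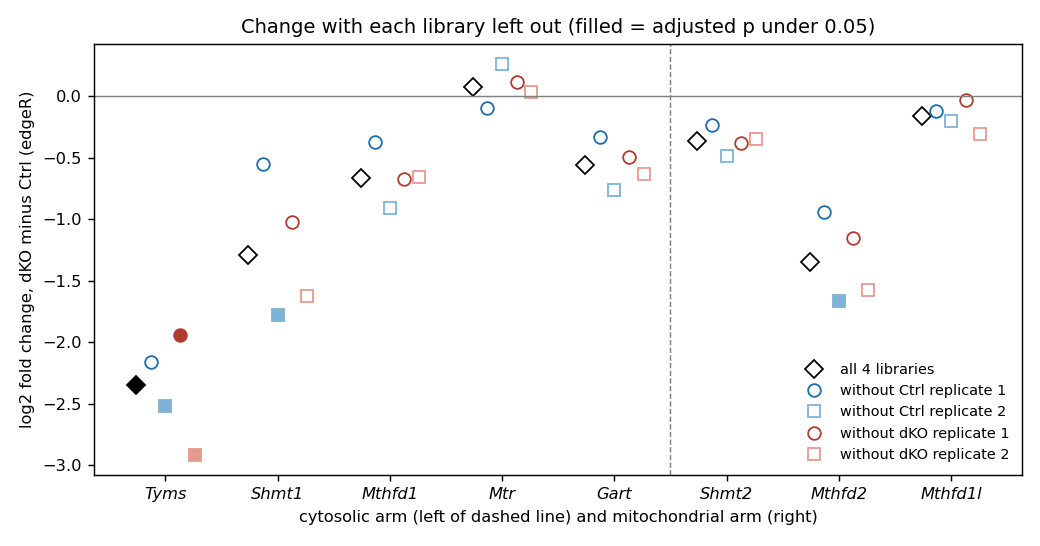
Log2 fold change of each member (dKO minus Ctrl, edgeR) with all 4 libraries (diamonds) and with each library left out in turn, filled where the adjusted p was under 0.05. Tyms stays below -1.9 in every fit but is not filled without Ctrl replicate 1, and Shmt1 runs from -0.55 to -1.78.

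The other genes of the pathway held 1 call with edgeR and 3 with DESeq2. The counts for this and the other lists stand against these shares of all tested genes, in either direction. An unadjusted p under 0.05 (edgeR) was found for 10.6%. After adjustment edgeR called 0.611%, DESeq2 2.69% and limma-voom 0.654%. Without the count filter edgeR called 2.4%, and with the stricter filter 1.56%. Of 56 tested genes of folate uptake, other folate enzymes, serine supply, purine synthesis, deoxynucleotide supply and the methionine cycle, 1 fell and 0 rose (edgeR), and the median log2 fold change was -0.18, against -0.61 over the 8 members. The gene that fell was Folr4, from 12.8 and 13.2 CPM in Ctrl to 2.43 and 3.14 CPM in dKO, with a log2 fold change of -2.22 (SE 0.32, edgeR adjusted p = 0.0279). Folr4 belongs to the folate receptor family by sequence, but its protein, also called Juno or Izumo1r, does not bind folate and is known from egg cells and regulatory T cells. It was not called without dKO 1 (edgeR adjusted p = 0.0789). The remaining 6 tested genes of folate uptake and reduction held no call.

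Deoxynucleotide supply, the list that Tyms feeds, had 11 of 14 genes with a negative log2 fold change, a median of -0.32 and no call (edgeR). In that list 3 genes had an unadjusted p under 0.05, 1 was called by DESeq2 and 0 by limma-voom. Rrm2, a subunit of ribonucleotide reductase, stood at 26.2 and 21.1 CPM in Ctrl against 9.99 and 12.2 CPM in dKO, with a log2 fold change of -1.09 (SE 0.25, edgeR adjusted p = 0.145). Tk1, thymidine kinase, which makes thymidylate by salvage, stood at 35.3 and 31.8 CPM in Ctrl against 14.8 and 22.1 CPM in dKO, with a log2 fold change of -0.86 (SE 0.25, edgeR adjusted p = 0.255). Both were lower in each dKO library than in either Ctrl library.

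Serine supply had 6 of 6 negative values with a median of -0.22 and no call (edgeR), with 1 gene at an unadjusted p under 0.05, 1 called by DESeq2 and 0 by limma-voom. Psat1, an enzyme of serine synthesis, was at 132.7 and 73.6 CPM in Ctrl against 38.3 and 61.1 CPM in dKO, with a log2 fold change of -1.05 (SE 0.32, edgeR adjusted p = 0.269). Phgdh, the first enzyme of that path, was at -0.35 (SE 0.20, edgeR adjusted p = 0.623). Ctrl 1 was the highest and dKO 1 the lowest library for Psat1, as for Tyms, Shmt1 and Mthfd2.

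Purine synthesis, the path of Gart, had 9 of 12 negative values, a median of -0.16 and no call (edgeR), with 2 genes at an unadjusted p under 0.05 and 0 called by DESeq2 or limma-voom. Prps1, which makes the ribose donor of purines, was at -0.51 (SE 0.15, edgeR adjusted p = 0.270) and the adenylosuccinate synthase gene Adssl1 at 0.64 (SE 0.28, edgeR adjusted p = 0.464). The methionine cycle, the path of Mtr, had 5 of 10 negative values, a median of -0.01 and no call (edgeR), with 1 gene at an unadjusted p under 0.05 and 0 called by DESeq2 or limma-voom. Ahcyl2, a relative of the enzyme that clears S-adenosylhomocysteine, was at -0.54 (SE 0.22, edgeR adjusted p = 0.437), and Lmbrd1, needed for cobalamin export from lysosomes, was at -0.31 (SE 0.19, edgeR adjusted p = 0.639).

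The other folate enzymes had 3 of 7 negative values, a median of 0.06 and no call (edgeR), with 0 genes at an unadjusted p under 0.05 and 0 called by DESeq2 or limma-voom. Gcsh, a part of the glycine cleavage system, was at -0.63 (SE 0.34, edgeR adjusted p = 0.591). Targets of ATF4, a stress factor known to drive Mthfd2, Shmt2 and Psat1, had 5 of 9 negative values and a median of -0.24. They held no call (edgeR), with 1 gene at an unadjusted p under 0.05 and 0 called by DESeq2 or limma-voom. Sesn2 was at -0.52 (SE 0.20, edgeR adjusted p = 0.406) and Aldh18a1 at -0.29 (SE 0.16, edgeR adjusted p = 0.594).

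**Figure D5:**
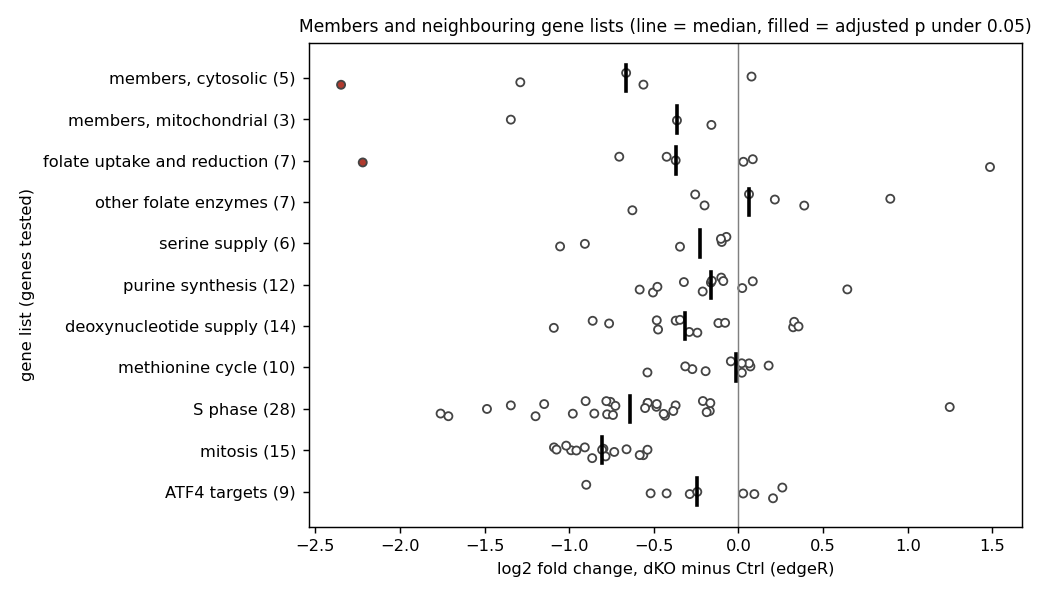
Log2 fold change (dKO minus Ctrl, edgeR) of every tested gene in the member arms and in neighbouring gene lists, 1 point per gene, filled red where the adjusted p was under 0.05, with a line at each list's median. The filled points are Tyms at -2.35 and Folr4 at -2.22, and the S-phase and mitosis medians lie at -0.64 and -0.81.

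Levels of cell cycle genes were mostly lower in dKO, as those of the members were. Negative log2 fold changes were found for 27 of 28 S-phase genes (median -0.64) and for 15 of 15 mitosis genes (median -0.81). None of the 43 was called (edgeR), with 23 at an unadjusted p under 0.05 (22 of them lower in dKO), 13 called by DESeq2 (12 lower) and 0 by limma-voom. The exception was Pcna, the sliding clamp of replication, named after its values were seen. It stood at 16.5 and 11.7 CPM in Ctrl against 25.3 and 41.6 CPM in dKO, a log2 fold change of 1.25 (SE 0.30, edgeR adjusted p = 0.166, DESeq2 adjusted p = 0.00631). Summed S-phase genes stood at 3174 and 2344 CPM in Ctrl against 1768 and 1951 CPM in dKO, and mitosis genes at 1139 and 765 CPM in Ctrl against 382 and 669 CPM in dKO. The lowest S-phase log2 fold change was -1.76, above that of Tyms and below those of Shmt1 and Mthfd2. Cdc6, which loads the replicative helicase, was at -1.71 (SE 0.33, edgeR adjusted p = 0.0822), and Uhrf1, which keeps DNA methylation through replication, at -1.49 (SE 0.30, edgeR adjusted p = 0.0994). In bulk RNA, fewer cells that express a gene and less RNA per cell cannot be told apart, and the part of cell cycling in the members' values was not tested.

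The genes whose profile over the 4 libraries was nearest to that of a member were found among the 9364 genes that averaged 5 CPM or more, by the Euclidean distance of centred log2 CPM. Nearest to Tyms were BC094916 (distance 0.161), the transcription factor Irf4 (0.442) and the T cell receptor complex gene Cd3e (0.526). Nearest to Mthfd2 were the replication gene Mcm10 (0.144), Uhrf1 (0.162) and the myelin glycoprotein gene Mag (0.170). BC094916 stood at 24.5 and 21.8 CPM in Ctrl against 3.24 and 5.82 CPM in dKO, and Mcm10 at 31.3 and 17.5 CPM in Ctrl against 7.62 and 11.5 CPM in dKO. The log2 fold change was -2.35 for BC094916 and -1.35 for Mcm10. That each is close to the value of its member follows from how these genes were picked.

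Transcripts listed as markers of other marrow cells were present, although the sort gated out CD3e-positive cells. Whether they came from other cells or from NK cells was not tested. NK markers were high in every library, with a summed level of 11250 and 11630 CPM in Ctrl against 9598 and 9668 CPM in dKO over 8 genes and none called (edgeR; 1 gene at an unadjusted p under 0.05, 0 called by DESeq2 and limma-voom). T cell markers summed to 952 and 871 CPM in Ctrl against 774 and 686 CPM in dKO, a sum to which Trbc1 (log2 fold change 0.22) and Trbc2 (-0.37) gave most. The list's median log2 fold change was -1.495, and 2 of 10 fell: Cd3e, from 47.5 and 52.5 to 8.90 and 12.2 CPM (edgeR adjusted p = 0.00790), and Trac, from 58.2 and 73.2 to 14.3 and 20.8 CPM (0.0207). Of the 10, 6 had an unadjusted p under 0.05, 6 were called by DESeq2 and 4 by limma-voom. Neutrophil-lineage markers summed to 2140 and 2722 CPM in Ctrl against 1321 and 2158 CPM in dKO. Their median log2 fold change was -0.52, and none of 10 was called (edgeR), with 3 at an unadjusted p under 0.05, 1 called by DESeq2 and 0 by limma-voom. Within that list Elane and Mpo, made by early precursors, were at -1.99 (SE 0.42, edgeR adjusted p = 0.112) and -1.97 (SE 0.47, edgeR adjusted p = 0.155). Elane stood at 105.5 and 39.4 CPM in Ctrl against 20.9 and 15.7 CPM in dKO. Mpo stood at 348.5 and 103.6 CPM in Ctrl against 59.7 and 55.5 CPM in dKO. Prtn3 and Ctsg were at -1.75 and -1.45, Ltf at -0.56, Fcnb at -0.48 and Ngp at -0.29. S100a8, S100a9 and Camp were at -0.04, 0.12 and -0.02. B-lineage markers summed to 108 and 239 CPM in Ctrl against 104 and 133 CPM in dKO, and erythroid markers to 404 and 585 CPM in Ctrl against 296 and 541 CPM in dKO. None of these was called (edgeR), with 3 of 8 B-lineage and 0 of 8 erythroid markers at an unadjusted p under 0.05, 1 and 0 called by DESeq2 and 0 by limma-voom. Monocyte and dendritic cell markers had a median log2 fold change of 0.02 (3 of 7 negative). That of progenitor markers was -0.38 (5 of 6 negative) and that of basophil and mast cell markers 0.49 (1 of 4 negative). None of these was called by edgeR or limma-voom. An unadjusted p under 0.05 (edgeR) was found for 1, 0 and 0 of them, and DESeq2 called 1, 0 and 0. Of the first list, Ly6c2 was at -1.26 (SE 0.26, edgeR adjusted p = 0.0994). No marker on these lists was at 0 in every library, and the part of such cells in the members' values was not tested.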

How the data were processed

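RNA sequencing covered 2 Ctrl and 2 dKO libraries. The submitters' processing notes list DESeq2 1.32.0, HTSeq 0.6.1, TopHat2 2.1.1, RSEM 1.3.0, Trimmomatic 0.36, FastQC 0.11.5 and genome mm9. They give no strand setting or annotation release, so reads of overlapping and antisense genes may be mixed. The authors deposited gene counts as whole numbers and, per the file headers, RSEM expected counts, TPM and a weighted transcript length in bases. Rows naming no gene were left out. Counts outside genes made up 18.1% and 21.5% in Ctrl 1 and Ctrl 2 and 23.8% and 24.3% in dKO 1 and dKO 2. That share was higher in both dKO libraries than in either Ctrl library. Ambiguous counts made up 2.20% to 2.34%.

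Counts were tested with edgeR 4.0.16 (quasi-likelihood, robust, TMM, filter at a minimum count of 10) in R 4.3.3, with Benjamini-Hochberg adjustment over 13904 genes. The SE is the absolute log2 fold change over the square root of F, and 95% intervals use the fit's degrees of freedom. P-values weigh the difference between groups against the spread between these libraries, moderated over the tested genes. Whether a library pools animals is not given, so what that spread stands for is not known. Alternatives used RLE and upper quartile scaling, no and a stricter filter (5 CPM in 2 libraries), DESeq2 1.42.0, limma-voom (limma 3.58.1), rounded RSEM expected counts, a replicate block and each library left out.

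All members were named; from other lists, called genes (at most 4) or the 2 with the smallest p, and the 3 nearest profiles (log2 CPM, prior count 2). Members and lists were chosen with earlier results of these data known. One result that the naming rule selects is not reported here. Positions are GRCm38, matched by gene identifier, not those of the build used for counting.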

Additional observations from a re-analysis of the deposited data

How the results depend on the processing

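Of 96 log2 fold changes of members under the 12 alternatives, 86 kept their direction and side of the threshold, and 1 reversed, that of Mtr, which ranged from -0.093 (without Ctrl replicate 1) to 0.27 with single libraries left out. The number of members called was 1 with all libraries, 4 without the count filter, 3 with DESeq2 and 0 with RSEM expected counts. Other pathway genes called numbered 1, then 4 without the filter and 3 with DESeq2. Cycling genes called numbered 0, then 19 without the filter (18 lower in dKO), 13 with DESeq2 (12 lower) and 2 with the stricter filter. With each library left out in turn, called members ranged from 0 to 3, other pathway genes from 0 to 2 and cycling genes from 0 to 9. The median log2 fold change ranged from -0.37 to -0.91 in the cytosolic arm and from -0.23 to -0.49 in the mitochondrial arm. Over all tested genes, 0.611% were called by edgeR, 2.4% without the filter, 2.69% by DESeq2 and 1.56% with the stricter filter. No such share is given for RSEM expected counts, the replicate block or the fits with a library left out. For the fit without Ctrl 2, only the share called lower is given. Nothing is read from the counts called under any of these settings. The causes of these shifts were not tested.

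The labels do not say whether same-numbered libraries belong together. Deviations of same-numbered libraries correlated at -0.0544 across 13904 genes. With 2 libraries per group this value cannot show whether they were paired. With the number as a replicate block, 1 member was called, Tyms (log2 fold change -2.41, edgeR adjusted p = 0.0283). The counts of Tyms in dKO were 107 and 198.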
